A study of Rattus norvegicus with 151 samples.

Results

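The kidney response of rats to PPH at 1000 mg/kg was measured as the difference in messenger RNA between 4 kidneys from the highest dose of PPH (propylene glycol phenyl ether, a solvent) and 5 kidneys from its own vehicle group. Members were chosen by their labels alone, which took 9 of the 151 arrays of the series, and all genes that could be tested were compared. The rats of every group used here were male Harlan Sprague-Dawley rats of 6 to 8 weeks, and each received 5 daily doses by gavage, with corn oil as the vehicle. The vehicle kidneys are labelled PPH-202, PPH-203, PPH-205, PPH-206 and PPH-208, and the treated kidneys PPH-233, PPH-234, PPH-236 and PPH-237. The same PPH set holds 4 kidneys each at 1, 10 and 100 mg/kg and 3 at 500 mg/kg, and these 24 kidneys entered 1 fit. The series is toxicology work that followed a chemical spill in West Virginia, and it also tested MCHM and crude MCHM (the main spilled compound and its technical mixture), whose 8 vehicle kidneys were used as a further reference. The labels do not state that each number is a separate rat, so the p-values measure the spread between these samples.

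Most kidney cells are tubule cells that reabsorb salts, sugars and amino acids, burn fatty acids in their mitochondria and peroxisomes, and conjugate foreign compounds for excretion into urine. They divide rarely in the adult and more often in a growing animal, and a cell that divides switches on a shared set of genes in the G2 phase and in mitosis. A kidney sample also holds vessels, fibroblasts and macrophages, and in such a bulk sample fewer cells of a type and less RNA per cell cannot be told apart.

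Values are log2 intensities on an Affymetrix array with 1 probe set kept per gene, and a change is the mean log2 intensity of the treated kidneys minus that of the vehicle kidneys. Of 14218 genes, 11264 were tested, and a gene is said to have risen or fallen where limma's adjusted p (Benjamini-Hochberg over the genes tested) was under 0.05. The number of arrays limits the precision. Array medians of the 9 kidneys lay between 5.33 and 5.36. Each had a median correlation of 0.992 to 0.994 with the other kidneys of the PPH set. Proximal tubule genes were high on every array, with a list mean of 12.31 ± 0.06 (SD, n = 5) in vehicle and 12.32 ± 0.05 (n = 4) in treated kidneys, and the liver gene Alb lay between 3.59 and 5.01. The difference between the 3' and 5' beta-actin control probe sets, a sign of RNA quality, was 2.37 to 2.54 in treated kidneys and 2.34 to 3.07 in vehicle kidneys, of which PPH-202, PPH-203 and PPH-208 lay above every treated one. Its part in the results was not tested beyond the fits without these 3 kidneys and with the difference as a covariate.

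At 1000 mg/kg the kidneys had lower RNA of genes of the G2 phase and mitosis, of Ptgs2, of some matrix genes and of the macrophage marker Adgre1, and higher RNA of some glutathione transferases, some enzymes of fatty acid and amino acid breakdown and some other conjugating enzymes. In all, 78 genes rose (0.692% of those tested) and 151 fell (1.34%), together 2.03%, and 85 of them changed at least 1.5-fold. The treated and vehicle arrays did not overlap for 199 of the called genes. Over all genes tested they did not overlap for 5.44%, with the treated arrays above for 1.8% and below for 3.64%. The median change was 0.45 among the risen genes, -0.50 among the fallen ones and -0.03 over all genes tested. With a further quantile normalization 0.941% of genes rose and 1.14% fell, so the split between directions moved with the scaling.

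The share of genes called depended on single arrays. It was 0.861% without treated kidney PPH-236 and 1.27% without treated kidney PPH-234. It was 1.16%, 1.28% and 1.35% without vehicle kidneys PPH-205, PPH-206 and PPH-203, and 3.21% without vehicle kidney PPH-208. With only the 9 arrays in the fit it was 0.979%, and 42.4% of the called genes kept their call. Without the 3 vehicle kidneys of high beta-actin difference it was 2.02%, and 62.9% kept their call.

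Genes of the cell cycle made the largest group. The list held 41 tested genes of DNA replication and division, of which 27 fell, none rose and 40 had a change below 0. Of all genes tested, 1.34% fell. Their median change was -0.69, beside -0.03 over all genes tested. The treated arrays lay below all vehicle arrays for 31 of the 41, where 3.64% of all genes tested did. Between 24 and 28 members fell when each array was left out in turn. As a mean over the 41 genes, the vehicle kidneys stood at 6.63, 6.99, 6.77, 6.74 and 6.62 (kidneys PPH-202, PPH-203, PPH-205, PPH-206 and PPH-208). The treated kidneys stood at 5.95, 6.00, 5.80 and 6.10 (PPH-233, PPH-234, PPH-236 and PPH-237). The groups did not overlap, and kidney PPH-236 was the lowest of all.

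The promoters of many G2 and mitosis genes are known to carry CCAAT boxes, bound by NF-Y, and a cell cycle homology region with the letters TTTGAA, bound by the DREAM and FOXM1 complexes. The 250 bases before the transcription start, from RefSeq's GRCr8 assembly of the rat, are shown for Cdk1, Prc1, Mki67 and Cks2, which fell together, because they hold both motifs close to each other. They are Cdk1 (chr20:19265043-19265292, plus strand), Prc1 (chr1:143659231-143659480, plus strand), Mki67 (chr1:199952594-199952843, minus strand) and Cks2 (chr17:13727520-13727769, minus strand). Each run is written 5′ to 3′ along the gene and ends at the base before the start. Capitals mark TTTGAA and CCAAT on either strand, and in Mki67 one of each overlap by a base.
Cdk1: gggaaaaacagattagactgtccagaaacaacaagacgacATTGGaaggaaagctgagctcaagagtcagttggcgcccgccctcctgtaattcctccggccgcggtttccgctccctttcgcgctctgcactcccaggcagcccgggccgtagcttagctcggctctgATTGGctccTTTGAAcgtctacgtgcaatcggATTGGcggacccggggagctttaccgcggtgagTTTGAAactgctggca
Prc1: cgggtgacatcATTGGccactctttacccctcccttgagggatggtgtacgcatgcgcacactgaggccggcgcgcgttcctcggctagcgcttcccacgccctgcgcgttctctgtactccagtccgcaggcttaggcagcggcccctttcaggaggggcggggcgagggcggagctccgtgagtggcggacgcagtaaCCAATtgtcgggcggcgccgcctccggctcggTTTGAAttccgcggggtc
Mki67: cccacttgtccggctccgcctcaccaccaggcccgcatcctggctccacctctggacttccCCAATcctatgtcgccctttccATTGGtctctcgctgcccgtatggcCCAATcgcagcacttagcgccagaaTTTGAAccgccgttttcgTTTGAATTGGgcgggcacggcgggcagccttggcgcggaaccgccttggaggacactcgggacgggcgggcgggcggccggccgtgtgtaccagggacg
Cks2: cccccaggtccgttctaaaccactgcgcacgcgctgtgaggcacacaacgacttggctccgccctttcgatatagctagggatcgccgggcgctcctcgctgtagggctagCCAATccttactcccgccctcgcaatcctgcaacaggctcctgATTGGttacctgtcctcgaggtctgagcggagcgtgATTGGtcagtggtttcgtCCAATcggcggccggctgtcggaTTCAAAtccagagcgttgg

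The table of promoters held 33 entries for 32 of the 41 cell cycle genes tested. TTTGAA stood in 14 of these 33 promoters and CCAAT in 27, on either strand. Over all 33469 promoters of the table the shares were 16.2% and 34%, and over the 10535 promoters of genes tested here they were 10.2% and 35.1%. Among the 22 promoters found for 21 cell cycle genes that fell, 13 held TTTGAA and 19 held CCAAT. Over all genes that fell, 21.5% of promoters held TTTGAA and 45.8% CCAAT, beside 15.5% and 48.8% over all genes that rose. A match is a description of the letters in this window and shows no binding.

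The fall was deepest in the genes of G2 and mitosis. Of 26 such genes 23 fell, where 1.34% of all genes tested fell, and their median change was -1.04. Ccna2, which encodes cyclin A2, the partner of the kinases that drive S phase and entry into mitosis, read 5.12, 6.16, 5.90, 5.79 and 5.27 in the vehicle kidneys. It read 4.03, 3.57, 3.11 and 3.99 in the treated ones, all under the level of 4.66 that was used as the filter on low values. The change between these readings was -1.97 ± 0.22 (SE, n = 5 and 4), with adjusted p = 2.7e-05 in limma, and no fold is given since the treated readings were not shown to lie above background.

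Cdk1, the kinase that starts mitosis, read 7.10, 7.81, 7.53, 7.28 and 6.99 in vehicle kidneys. In treated kidneys it read 5.72, 5.69, 5.41 and 6.09, so the highest treated kidney lay clearly under the lowest vehicle kidney. It fell by 1.61 ± 0.20 (SE), or 3.06-fold (limma adjusted p = 4.8e-05). Mki67, the proliferation marker Ki-67, read 5.78, 6.11, 6.09, 6.08 and 5.73 against 4.55, 4.15, 4.18 and 4.77. The 5 vehicle values were close together, and the groups were far apart for Mki67 (change -1.54 ± 0.18, adjusted p = 3.2e-05 in limma).

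Ect2, the exchange factor that sets up the cleavage furrow of a dividing cell, had the smallest p of all genes. It read 7.37, 8.01, 7.41, 7.51 and 7.15 in vehicle and 6.22, 5.95, 6.15 and 6.19 in treated kidneys, a change of -1.36 ± 0.14 (adjusted p = 2.2e-05 in limma). The 5 genes whose values ran most like those of Ect2 over the 24 kidneys of the PPH set, by Pearson's r, were Cks2 (0.947), Cdk1 (0.947), Ccna2 (0.942), Mki67 (0.942) and Top2a (0.936). These r describe kidneys that share dose groups, so part of the likeness is the dose itself.

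Other deep falls were those of Cdkn3, a phosphatase that acts on cyclin-dependent kinases (-1.92 ± 0.25), Ccnb2, cyclin B2 (-1.61 ± 0.19), Prc1, a bundler of spindle microtubules (-1.53 ± 0.18) and Kif20a, a kinesin of cytokinesis (-1.42 ± 0.18). Cks2, a small subunit of cyclin-dependent kinases, fell by 1.38 ± 0.15, and Top2a, the topoisomerase that untangles chromosomes, by 1.33 ± 0.16. A second probe set of Top2a changed by -0.93. All of these genes and those above were called in each of the 9 fits that left out 1 array. Foxm1, a transcription factor of G2 and mitosis genes that was looked up after the values were seen, fell by 0.50 ± 0.10 (adjusted p = 0.0055 in limma), and its other, dimmer probe set changed by -0.11.

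**Figure D1:**
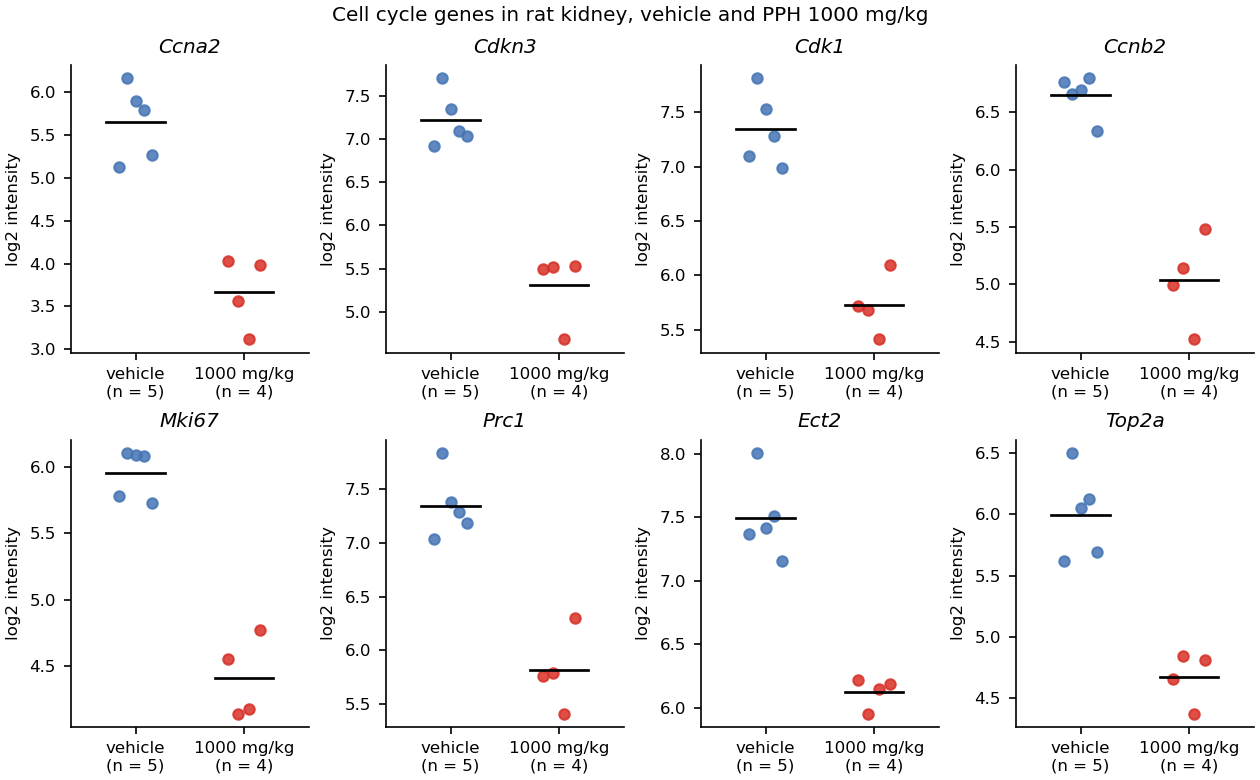
Log2 intensity of 8 cell cycle genes in each kidney, with the 5 vehicle kidneys in blue and the 4 kidneys of 1000 mg/kg PPH in red; points are arrays and black bars are group means. In all 8 genes every treated kidney lies below every vehicle kidney; for Cdk1 the treated kidneys span 5.41 to 6.09 and the vehicle kidneys 6.99 to 7.81.

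Genes of DNA replication moved less. Of 10 such genes 4 fell, where 1.34% of all genes tested fell. Their median change was -0.31, with a range of -0.62 to -0.13. The helicase subunits Mcm6 (-0.62 ± 0.11), Mcm4 (-0.53 ± 0.08) and Mcm2 (-0.34 ± 0.08) fell, as did Pcna, the sliding clamp of DNA polymerase (-0.32 ± 0.05). These 4 are named because they were called, and they were not followed singly through the other fits. None of the 5 cyclins of the G1 phase passed the test, and their median change was -0.25. Ccnd1, cyclin D1, read 10.38 to 11.30 in vehicle and 10.65 to 10.70 in treated kidneys, so the treated values lay inside the vehicle range (change -0.15 ± 0.18, adjusted p = 0.76 in limma). The difference between these 3 groups of genes was not tested.

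The vehicle kidneys of the MCHM sets gave a second reference for the cell cycle genes. The list mean was 6.62 ± 0.10 (SD, n = 5) in the MCHM vehicles and 6.69 ± 0.35 (n = 3) in the crude MCHM vehicles, with a lowest kidney of 6.29, against a highest treated kidney of 6.10. For 25 of the 27 cell cycle genes that fell, all 4 treated kidneys lay below all 13 vehicle kidneys of the 3 sets. This held for 54 of all 151 genes that fell, and its share over all genes tested was not taken. These genes were called against the PPH vehicles, which are among the 13, so the counts are partly set by that choice. The PPH vehicles differed from the other vehicles in 1589 of 11501 genes tested (13.8%), and 48 of these reached 1.5-fold. Without vehicle kidney PPH-202 that count was 1028, and without PPH-203 it was 936. The difference was called for 2 of the 27 cell cycle genes that fell, 1 in each direction, and Ect2 was the one with the higher PPH vehicles (by 0.42, adjusted p = 0.029 in limma).

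Below 1000 mg/kg no gene passed the test against vehicle. Limma gave no call at 500, 100, 10 or 1 mg/kg (0 genes each), and an unadjusted p under 0.05 was seen for 565, 834, 927 and 324 genes. It also called 0 genes between 1000 and 500 mg/kg, where 718 genes had an unadjusted p under 0.05. Without treated kidney PPH-237 that comparison called 2 genes, and without vehicle kidney PPH-208 the comparison at 100 mg/kg called 2. All these comparisons except that of 1000 with 500 mg/kg share the 5 vehicle kidneys, so their values are set side by side here and not counted as separate evidence.

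The mean of the cell cycle list was 6.75 ± 0.15 (SD) in vehicle kidneys, 6.65 ± 0.14 at 1 mg/kg, 6.53 ± 0.13 at 10, 6.42 ± 0.15 at 100, 6.28 ± 0.15 at 500 and 5.96 ± 0.13 at 1000 mg/kg. Neighbouring doses up to 500 mg/kg overlapped. The 3 kidneys of 500 mg/kg stood at 6.38, 6.11 and 6.34, and only the lowest came close to the treated kidneys of 1000 mg/kg. The median change of the 41 genes was -0.10, -0.17, -0.27 and -0.45 at 1, 10, 100 and 500 mg/kg, with 35, 41, 40 and 41 genes below 0.

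A trend over the rank of the dose was called for 178 genes (1.58% of those tested), of which 51 rose (0.453%) and 127 fell (1.13%). Cell cycle genes were 29 of those that fell. Cdk1 fell by 0.29 per dose step (adjusted p = 2.1e-05 in limma). From 500 to 1000 mg/kg its difference was -0.75 (95% interval -1.21 to -0.29, adjusted p = 0.61 in limma), so the size of this last step was not settled at 3 against 4 kidneys. The trend called 111 genes without treated kidney PPH-236 and 118 without vehicle kidney PPH-205.

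**Figure D2:**
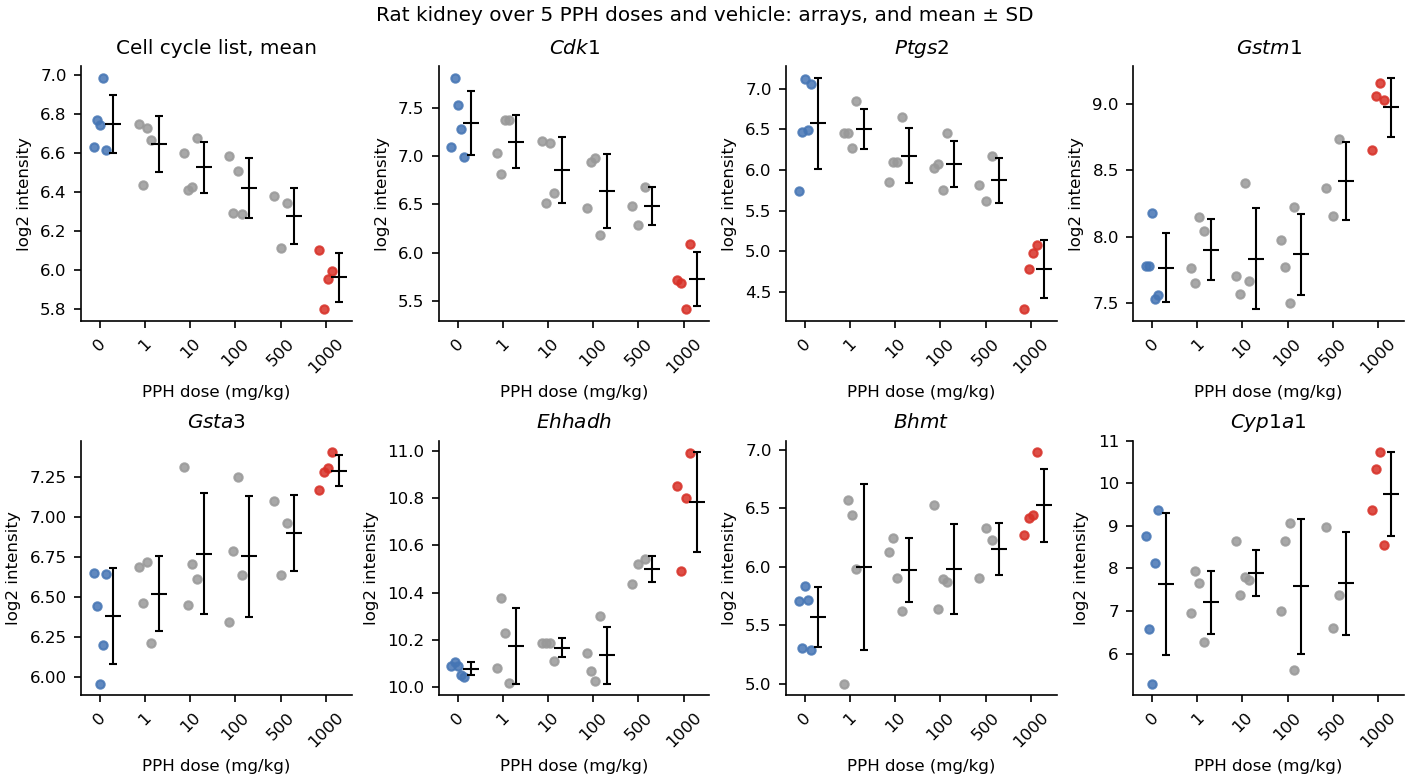
Log2 intensity in the kidneys of the PPH set by dose in mg/kg (0 is vehicle, in blue; 1000 in red; other doses in grey), for the mean of the 41 cell cycle genes and for 7 genes; points are arrays and bars beside them are mean ± SD over 3 to 5 arrays. The list mean goes from 6.75 in vehicle to 5.96 at 1000 mg/kg, and Cyp1a1 varies as much among the vehicle kidneys (5.29 to 9.38) as between doses.

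Ptgs2 encodes cyclooxygenase-2, which makes prostaglandins and is expressed in the kidney in the macula densa and in interstitial cells of the medulla. It read 5.74, 6.47, 7.12, 6.49 and 7.06 in vehicle and 4.29, 4.79, 4.98 and 5.08 in treated kidneys, with no overlap. The change was -1.79 ± 0.23 (SE), or 3.46-fold (adjusted p = 0.00011 in limma), and it was called in each of the 9 fits that left out 1 array. Ptgs2 was the only one of 12 tested genes of renin release, prostaglandins and the macula densa that passed, where 1.34% of all genes tested fell. The list's median change was 0.004. Ptgs1, the other cyclooxygenase, read 4.78 to 5.33 in vehicle and 5.00 to 5.26 in treated kidneys. At 500 mg/kg Ptgs2 read 5.82, 5.62 and 6.17, which overlaps the vehicle kidneys.

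Of 11 tested genes of fibroblasts and matrix 2 fell, where 1.34% of all genes tested fell. All 11 had a change below 0, with a median of -0.50. Mfap4, a protein of elastic fibres, read 5.55, 6.24, 6.46, 6.02 and 6.29 in vehicle and 4.79, 4.64, 4.45 and 5.03 in treated kidneys. Its change was -1.39 ± 0.29 (adjusted p = 0.012 in limma), and without treated kidney PPH-236 its adjusted p was 0.063. The PPH vehicles stood at 6.11 ± 0.35 for Mfap4, and the MCHM vehicles at 5.14 ± 0.64, nearer to the treated kidneys at 4.73 ± 0.24. Sparc, a collagen-binding matrix protein, fell by 0.42 ± 0.10 (adjusted p = 0.023 in limma) and kept its call in 4 of the 9 fits that left out 1 array. The collagen genes Col1a1 (-0.72 ± 0.22, adjusted p = 0.10) and Col1a2 (-0.50 ± 0.18, adjusted p = 0.19) did not pass.

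Further matrix genes, chosen after their values were seen, fell by less than 1 log2 unit. They included Col4a1 of basement membranes (-0.46 ± 0.11), Col6a1 (-0.48 ± 0.12), Emilin1 (-0.43 ± 0.10) and Pxdn, the peroxidase that cross-links collagen IV (-0.45 ± 0.09). Col6a2 also fell (-0.40, adjusted p = 0.043 in limma), but its second probe set changed by 0.04. Pxdn was called in all 9 fits that left out 1 array, Col4a1 in 4, Col6a2 in 3 and Col6a1 and Emilin1 in 2 each.

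Of 13 tested macrophage genes 1 fell, where 1.34% of all genes tested fell. All 13 had a change below 0, with a median of -0.14, beside -0.03 over all genes tested. Adgre1, the macrophage marker F4/80, read 6.25, 6.26, 6.13, 5.89 and 6.29 in vehicle and 5.43, 4.83, 5.35 and 5.83 in treated kidneys. The groups did not overlap, but treated kidney PPH-237 came close to vehicle kidney PPH-206. Its change was -0.80 ± 0.18 (adjusted p = 0.020 in limma), and without treated kidney PPH-234 its adjusted p was 0.090. Adgre1 was called in 6 of the 9 fits that left out 1 array. The macrophage markers Cd68 (-0.11, adjusted p = 0.63 in limma) and Csf1r (-0.34, adjusted p = 0.064) did not pass. The list mean was 7.66 to 7.82 in vehicle and 7.37 to 7.57 in treated kidneys. None of 10 endothelial genes passed, and 9 of them were below 0 (median -0.13). The part of these markers in the other falls was not tested.

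**Figure D3:**
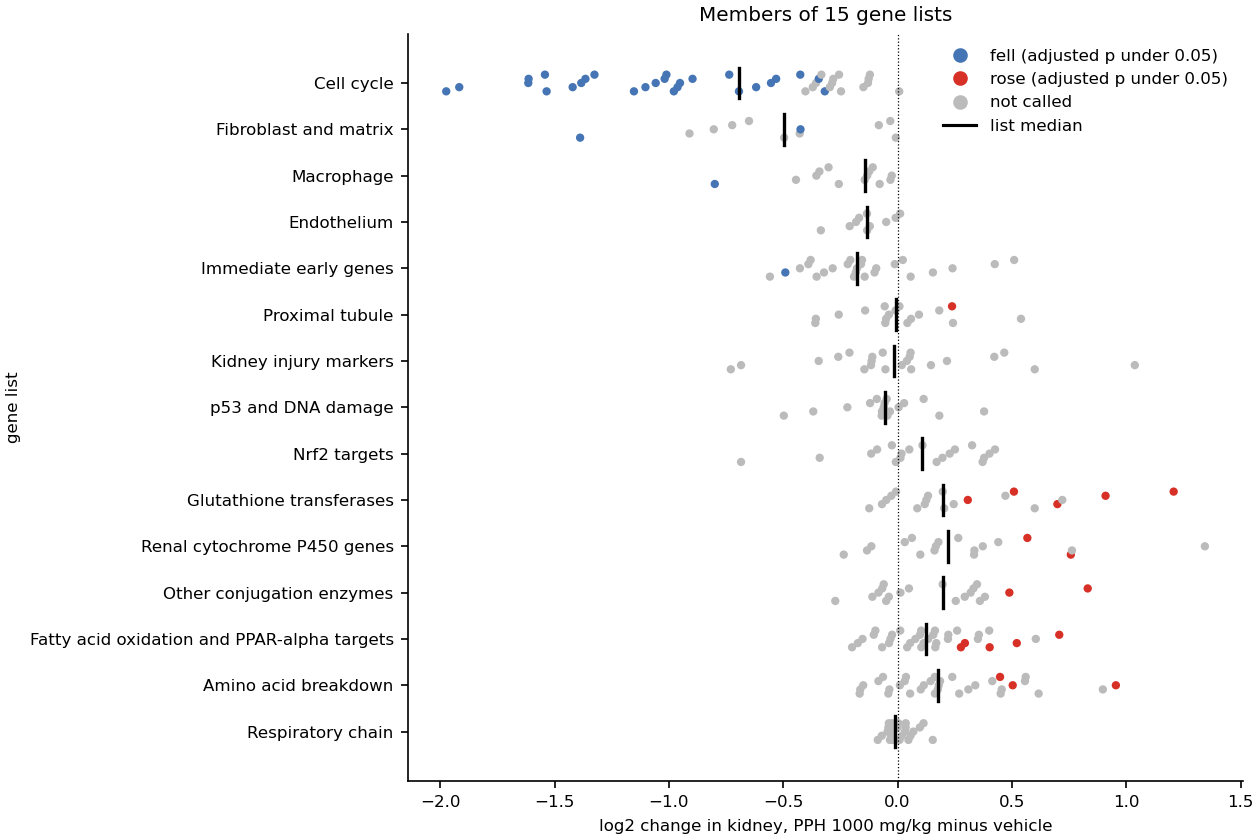
Log2 change in kidney at 1000 mg/kg PPH against vehicle for each tested member of 15 gene lists; blue points fell, red points rose (limma adjusted p under 0.05), grey points were not called, and black bars are list medians. The cell cycle list has a median of -0.69, the glutathione transferases one of 0.20, and the respiratory chain genes lie between -0.09 and 0.15.

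Some glutathione transferases rose. These enzymes join reactive compounds to glutathione, after which the kidney turns them into excreted mercapturates. Of 20 tested, 5 rose, none fell and 15 were above 0, with a median change of 0.20, beside 0.692% of all genes that rose. Without vehicle kidney PPH-208, 9 of the 20 rose. Gstm1 read 7.78, 7.78, 8.18, 7.53 and 7.56 in vehicle and 8.65, 9.06, 9.16 and 9.03 in treated kidneys. The lowest treated kidney lay above the highest vehicle kidney, and the change was 1.21 ± 0.18 (SE), or 2.31-fold (adjusted p = 0.00042 in limma). At 500 mg/kg Gstm1 read 8.37, 8.15 and 8.73, and the change of 0.65 did not pass (adjusted p = 0.51).

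Gsta3, an alpha class transferase, read 6.65, 6.45, 5.96, 6.20 and 6.65 in vehicle and 7.17, 7.28, 7.31 and 7.41 in treated kidneys. It rose by 0.91 ± 0.18 (adjusted p = 0.0072 in limma), and the treated kidneys were closer together than the vehicle kidneys. Gstm2 rose by 0.70 ± 0.13, Gstz1, which also breaks down tyrosine as maleylacetoacetate isomerase, by 0.51 ± 0.10, and the membrane-bound Mgst1 by 0.31 ± 0.07. All but Mgst1 were called in each of the 9 fits that left out 1 array, and Mgst1 in 7. Transferases of 1 class are near copies in sequence, so probe sets of Gstm1 and Gstm2 may share signal. The abundant Gsta1 changed by 0.13 ± 0.08 (adjusted p = 0.46 in limma).

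A few other enzymes that handle foreign compounds rose, where 0.692% of all genes tested rose. Of 19 other conjugation enzymes, 2 rose: Sult1a1, a sulfotransferase of phenols (0.83 ± 0.20), and Nat8, which acetylates cysteine conjugates in the proximal tubule (0.49 ± 0.13). Of 18 cytochrome P450 genes of the kidney, 2 rose: Cyp2d4 (0.57 ± 0.09) and Cyp2e1, which oxidizes small solvents (0.76 ± 0.18). Cyp2e1 read 10.42, 10.77, 11.13, 10.66 and 11.16 in vehicle and 11.41, 11.68, 11.79 and 11.46 in treated kidneys. The groups did not overlap, although vehicle kidneys PPH-205 and PPH-208 came near the lowest treated one. Cyp2d4 was called in all 9 fits that left out 1 array, Cyp2e1 in 4, Sult1a1 in 4 and Nat8 in 2.

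The target lists of the receptors that sense foreign compounds gave no call. None of 19 tested Nrf2 targets, 4 targets of the aryl hydrocarbon receptor and 9 targets of CAR and PXR passed, and their median changes were 0.11, 0.17 and 0.20. The glutathione transferases that rose (Gstm1, Gsta3, Gstm2, Gstz1 and Mgst1) were on none of these lists, so the counts do not cover them. Nqo1, a quinone reductase under Nrf2, read 6.20 to 7.21 in vehicle and 7.12 to 7.42 in treated kidneys (change 0.40, 95% interval 0.07 to 0.73, adjusted p = 0.22 in limma). Cyp1a1, the classic target of the aryl hydrocarbon receptor, read 8.76, 6.59, 5.29, 8.12 and 9.38 in vehicle and 9.38, 10.33, 10.74 and 8.54 in treated kidneys. Its change of 2.12 was larger than any called one, but the vehicle kidneys were as far apart as 5.29 and 9.38 and the groups overlapped (adjusted p = 0.16 in limma). The 95% interval of the Cyp1a1 change was 0.56 to 3.68.

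Some genes of fatty acid breakdown rose. The list of fatty acid oxidation and PPAR-alpha targets held 34 tested genes, of which 5 rose, none fell and 25 were above 0 (median 0.12), where 0.692% of all genes tested rose. With only the 9 arrays in the fit, 2 of them rose. Ehhadh, the bifunctional enzyme of peroxisomal beta-oxidation and a PPAR-alpha target, read 10.09, 10.11, 10.09, 10.05 and 10.04 in vehicle. It read 10.85, 10.49, 10.80 and 10.99 in treated kidneys, above a very narrow vehicle range (change 0.71 ± 0.08, 1.63-fold, adjusted p = 4.2e-05 in limma). Its values at 500 mg/kg were 10.44, 10.52 and 10.54, also above every vehicle kidney, with a change of 0.42 (adjusted p = 0.18). The adjusted p of Ehhadh over the dose trend was 1.7e-05.

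The other 4 were Decr1, the mitochondrial dienoyl-CoA reductase (0.52 ± 0.09), Cyp4a3, a fatty acid hydroxylase (0.40 ± 0.08), Ech1, which shifts double bonds of fatty acids (0.29 ± 0.06), and Acadm, the medium-chain acyl-CoA dehydrogenase (0.28 ± 0.06). Decr1 and Acadm were called in all 9 fits that left out 1 array, Cyp4a3 in 8 and Ech1 in 7. Without treated kidney PPH-236, 3 of the 34 genes rose. Cpt1a, which lets fatty acids into mitochondria, changed by 0.04 ± 0.08, with vehicle kidneys at 9.91 to 10.06 and treated ones at 9.86 to 10.16. Slc27a2, a fatty acid transporter of the proximal tubule, rose by 0.24 ± 0.06 (adjusted p = 0.030 in limma), called in 5 of the 9 fits.

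Of 33 genes of amino acid breakdown, 3 rose, where 0.692% of all genes tested rose, and 26 were above 0 (median 0.18). They were Bhmt, which passes a methyl group from betaine to homocysteine (0.96 ± 0.24), Prodh, the proline dehydrogenase (0.50 ± 0.11), and Hgd of tyrosine breakdown (0.45 ± 0.10). Bhmt read 5.71, 5.30, 5.83, 5.72 and 5.29 in vehicle and 6.27, 6.41, 6.44 and 6.98 in treated kidneys. The groups did not overlap, but the PPH vehicles (5.57 ± 0.26) were below those of MCHM (6.72 ± 0.24), which lay at the treated level (6.53 ± 0.31). Bhmt was called in none of the 9 fits that left out 1 array, where its adjusted p was up to 0.11, and Prodh and Hgd were called in 6 each. A second, dimmer probe set of Prodh changed by -0.004.

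Genes near Bhmt in methyl group and glycine metabolism were looked up after the values were seen. Dmgdh, which takes a methyl group from dimethylglycine, rose by 0.53 ± 0.10, Gnmt, which methylates glycine, by 0.45 ± 0.10, and Ahcy, which splits S-adenosylhomocysteine, by 0.58 ± 0.14. Aldh1l1, a folate enzyme from the list of aldehyde oxidizing enzymes, rose by 0.37 ± 0.07. It was the only one of 25 on that list that passed, where 0.692% of all genes tested rose. Dmgdh and Aldh1l1 were called in all 9 fits that left out 1 array, Gnmt in 5 and Ahcy in 4. Among genes of glucose making and transport, Pck1, the enzyme that commits to gluconeogenesis, rose by 0.52 ± 0.13 and Khk, fructokinase, by 0.30 ± 0.08. Slc2a2, the basal glucose transporter GLUT2, fell by 0.53 ± 0.13. These 3 of 14 tested genes had adjusted p of 0.032, 0.048 and 0.026 in limma and were called in 4, 2 and 4 of the 9 fits. Of all genes tested, 2.03% were called.

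Some genes outside the lists rose as well, and Dmrtc1c1 and Gtpbp4 had larger changes than any list member that rose. Dmrtc1c1 read 10.01, 10.21, 9.09, 9.87 and 10.02 in vehicle and 11.11, 11.09, 11.39 and 11.02 in treated kidneys. Vehicle kidney PPH-205 was the lowest by far, and the groups did not overlap (change 1.31 ± 0.19, adjusted p = 0.00033 in limma, called in all 9 fits that left out 1 array). Gtpbp4, a GTPase of ribosome assembly, read 7.54, 7.04, 6.71, 7.34 and 7.44 against 8.08, 8.26, 8.13 and 9.56. Treated kidney PPH-237 stood apart from the other 3 in Gtpbp4, and its second probe set gave 1.26 beside 1.29 for the one kept. Ttpa, the tocopherol transfer protein, rose by 0.96 ± 0.24, and Fam13c by 0.88 ± 0.16. Fam13c was called in all 9 fits that left out 1 array, Gtpbp4 in 8 and Ttpa in 3.

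The vehicle kidneys of the other sets were also set beside all called genes. Among the 78 risen genes, the PPH vehicles were called lower than the other vehicles in 19 and higher in 0. Among all 11264 genes tested, they were lower in 604 and higher in 969. In 74 of the 78 the treated mean was above the means of all 3 vehicle groups, and in 27 all 4 treated kidneys lay above all 13 vehicle kidneys. Among the 151 fallen genes, the PPH vehicles were called higher than the other vehicles in 17 and lower in 1. In these the treated mean was below all 3 vehicle means in 85.4%, and in 54 all treated kidneys lay below all 13 vehicle kidneys. For the treated kidneys against all 3 vehicle groups, no share over all genes tested was taken. The risen and fallen genes were called against the PPH vehicles, so these counts are partly set by that choice. Gstm1 was 8.04 ± 0.43 and 8.19 ± 0.05 in the vehicles of MCHM and crude MCHM, beside 7.77 ± 0.26 in those of PPH and 8.97 ± 0.22 in treated kidneys.

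Markers of tubule damage and of tubule segments gave almost no calls. None of 22 kidney injury markers passed (median -0.02, range -0.73 to 1.04). For 3 of them all treated arrays lay above all vehicle arrays, where 1.8% of all genes tested did. Lcn2, the injury marker NGAL, read 4.60 to 5.31 in vehicle and 4.65 to 5.22 in treated kidneys, and Clu read 8.75 to 9.11 against 8.68 to 9.16. None of 17 genes of p53 and DNA damage passed, and Cdkn1a, the cyclin-dependent kinase inhibitor p21, changed by -0.37 (95% interval -0.62 to -0.11, adjusted p = 0.14 in limma). None of 26 respiratory chain genes, 20 genes of cholesterol synthesis and uptake and 12 chaperone genes passed. Of 17 proximal tubule markers Slc27a2 alone was called, and none of 8 thick ascending limb and 12 collecting duct markers was. None of 4 distal convoluted tubule markers was called, but 3 had a change below 0 (median -0.40). For 1 of these 4 the treated arrays lay below all vehicle arrays, where 3.64% of all genes tested did.

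The liver of the same dose groups gave a further comparison, tested as the kidney change minus the liver change in a fit of both tissues. This fit did not pair kidneys and livers by replicate number. Of 11894 genes tested, 89 differed (0.748%), 25 with the higher change in kidney (0.21%) and 64 with the higher change in liver (0.538%). A further quantile normalization gave 82, of which 37 had the higher change in kidney, and without treated kidney PPH-234 there were 57. Of the genes called in kidney, 28 differed, 17 were also called in liver in the same direction and 4 in the opposite one. Over all genes tested, 1.82% rose and 0.689% fell in liver. In liver 9 of the 41 cell cycle genes fell, with a median change of -0.41, where 82 of all genes fell (0.689%). Ccna2, Cdk1, Ccnb2, Cdkn3 and Mki67 fell in both tissues, with liver changes of -1.76, -1.98, -1.67, -2.16 and -1.18.

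Cks2 had a lower change in kidney than in liver by the test of the difference, and no fall was called in liver. It was at 7.87 ± 0.08 in vehicle and 7.97 ± 0.22 in treated livers, and the difference of the changes was -1.48 (95% interval -1.91 to -1.05, adjusted p = 8.4e-05 in limma). Ptgs2 was under the filter level in liver, at 3.13 ± 0.11 and 3.21 ± 0.39, so a fall there could not be measured and its called difference does not compare the tissues. Gstm1 was high in liver, at 12.77 ± 0.10 in vehicle and 12.96 ± 0.10 in treated livers. The difference of its changes was 1.02 (adjusted p = 0.0059 in limma), and whether its probe set was near saturation in liver was not tested. Gsta3 rose in both, by 0.91 in kidney and 2.65 in liver, and the difference of -1.74 was called (adjusted p = 0.016). Pck1 changed by -0.41 in liver, and its difference of 0.92 was called (adjusted p = 0.019).

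Other changes called in liver did not pass in the kidney. Nqo1 rose by 1.33 in liver (adjusted p = 8.8e-08), and the difference was -0.93 (adjusted p = 0.018). Of 20 genes of cholesterol synthesis and uptake, 16 rose in liver, where 1.82% of all genes rose, with a median of 0.69. Between the tissues 10 of the 20 differed, where 0.748% of all genes tested differed. Ccnd1 changed by -1.62 in liver (adjusted p = 1.4e-05), and its difference of 1.47 was called (adjusted p = 0.015).

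**Figure D4:**
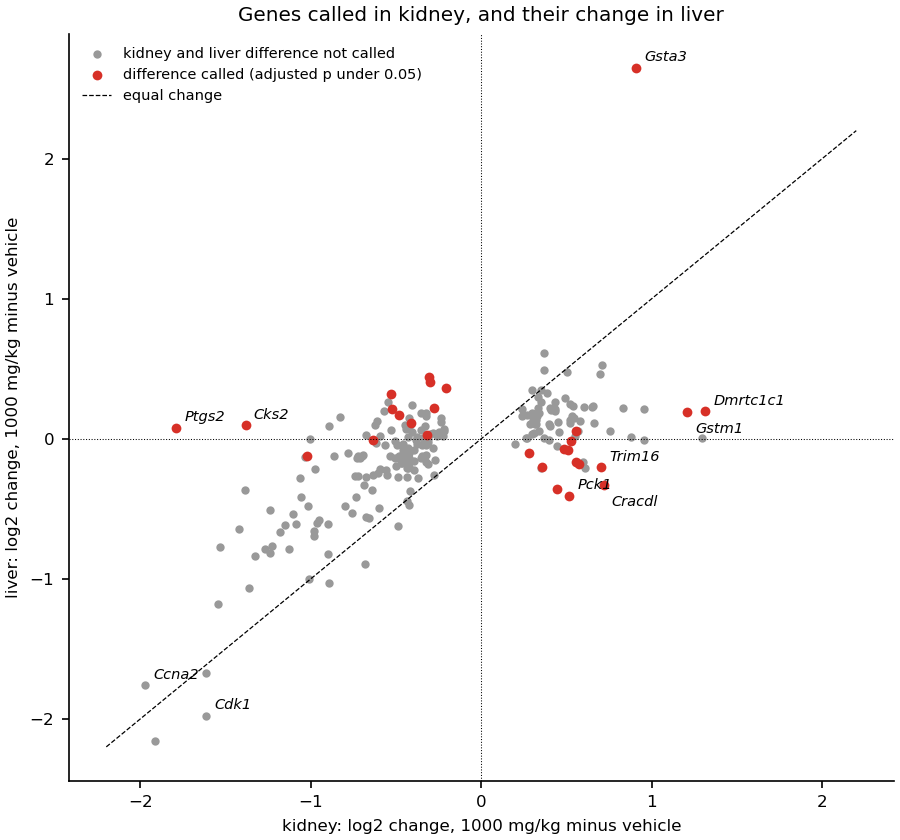
Log2 change at 1000 mg/kg PPH against vehicle in kidney (horizontal) and liver (vertical) for the genes called in kidney; each point is a gene, red where the difference between the tissues was called (28 genes), and the dashed line marks equal change. Ccna2 and Cdk1 lie near the line, Ptgs2 and Cks2 changed in kidney with liver changes of 0.08 and 0.09 (Ptgs2 lay under the filter level in liver), and Gsta3 rose more in liver.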

How the data were processed

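Biotin-labelled total RNA was measured on Affymetrix Rat 230 2.0 arrays. The authors deposited log2 values of 31099 probe sets for 151 arrays, made with RMA per the submitters' processing notes; the version and the sets normalized together are not given in the sources used here. RMA quantile normalizes arrays, so a shift common to most genes would be removed. Symbols came from the platform annotation, brought up to date through RefSeq (20832 probe sets had 1 symbol, 436 several, 9831 none here). Per gene the probe set of highest mean over the kidney arrays was kept. A gene was tested if above 4.66, the 40th percentile of kidney values, in at least 3 arrays. One kidney column (0.1 mg/kg MCHM, number 13) was left out, since its values correlated with other kidneys at 0.401 as deposited and 0.952 after its values were moved by 1 probe set.

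The tests, all two-sided, used limma 3.58.1 (R 4.3.3, with version 1.17.8 of data.table) and Benjamini-Hochberg adjustment over all genes tested: each dose against vehicle and the trend over dose rank in the 24 PPH kidneys, the tissue difference in PPH kidneys and livers, and the PPH vehicles against the other vehicles in all kidneys. The fit was tested on simulated data with known changes. The comparison and the 45 gene lists were chosen with earlier results of these data known. Named genes were the 12 largest rises and 12 largest falls with all treated arrays on 1 side of the vehicle mean, up to 6 called members and the first 2 measured members of each list, the 5 largest differences each way from liver, and the 5 genes most like the one of smallest p. Others are marked as chosen after their values were seen, except Mcm6, Mcm4, Mcm2 and Pcna, the called genes of DNA replication. Alternatives were the filter, the probe set rule, normalization, array weights, the arrays in the fit, each array left out and the replicate number as a block.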

Additional observations from a re-analysis of the deposited data

Results flagged for a closer look

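Single kidneys stood far from the others of their group in 8 of 142 gene and group pairs, examined for 71 of the genes named here (5.63%, where chance gives about 1 in 20). Treated kidney PPH-236 was low for Cdkn3 (4.68, others 5.50 to 5.53) and high for Hgd (11.36, others up to 11.04). Kidney PPH-237 was high for Gtpbp4 (9.56, others 8.08 to 8.26), and kidney PPH-234 was high for Slc2a2 (10.17, others 9.60 to 9.66). Vehicle kidney PPH-208 was low for Ccnb2 (6.33, others 6.66 to 6.80) and for Cybb (8.27, others 8.60 to 8.67). Kidney PPH-203 was low for Dmgdh (9.0, others 9.29 to 9.36) and high for Enpp5 (10.67, others 10.47 to 10.52).

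The kidney change minus the liver change at 1000 mg/kg passed the test of the difference (limma, adjusted p under 0.05) for 16 of the same 71 genes. The difference was negative for Ptgs2 (-1.87), Gsta3 (-1.74), Cks2 (-1.48), Nqo1 (-0.93), Tnfaip3 (-0.85) and C3 (-0.63). It was positive for Ccnd1 (1.47), Dmrtc1c1 (1.12), Gstm1 (1.02), Pck1 (0.92), Papss2 (0.80), Enpp5 (0.72), Gstz1 (0.59), Dmgdh (0.54), Upb1 (0.50) and Acadm (0.38). Pcna, which was not among the 71 genes, also passed this test (-0.35, adjusted p = 0.028 in limma). Tnfaip3 changed by -0.53 in kidney and 0.32 in liver, and Dmgdh by 0.53 and -0.01. Ptgs2 lay under the filter level in liver (3.13 and 3.21), so its difference does not compare the tissues.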

How the results depend on the processing

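No called gene that was followed reversed its direction under any setting tried, while some genes that were not called, such as Cpt1a, Lcn2 and Alb, changed sign between fits. The count of cell cycle genes that fell stayed between 24 and 28 when each array was left out. Leaving out each array gave a share of tested genes called of 0.861% to 3.21% at 1000 mg/kg, 0.986% to 2.08% for the dose trend, 0.479% to 1.11% for the difference from liver and 8.14% to 13.3% for the vehicle comparison. It gave 0% to 0.0178% between 1000 and 500 mg/kg and at 100 mg/kg, 4 to 9 risen glutathione transferases and 3 to 7 risen genes of fatty acid oxidation. With only the 9 arrays fitted, 0.979% of genes were called and 2 fatty acid oxidation genes rose, with fewer arrays to estimate the spread. Without the 3 vehicles of high beta-actin difference, a setting chosen after seeing the data, 1 gene was called at 500 and 1 at 10 mg/kg (0.0089% each) and 3 fatty acid oxidation genes rose; the cause was not tested. With that difference as a covariate, also chosen later, 2.13% of genes were called at 1000 mg/kg, and 80.3% of the called genes kept their call. The other settings (all genes without a filter, probe sets averaged, a further quantile normalization, array weights, every kidney in 1 fit, an intensity trend) kept each of these counts within 1.5 times. Of 82 called genes followed through all fits, 43 were called in each that left out 1 array and 33 in every fit, and all 82 kept their sign.

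The liver and kidney arrays share replicate numbers, but the labels do not say that a number is an animal. With the number as a replicate block, 1.27% of genes differed between kidney and liver, including all 89 of the fit without it. Deviations of same-numbered arrays correlated at 0.025 to 0.234 over 22 pairs, above 0.1 in 16, and 21 of the 22 kidneys correlated best with the liver of their own number, a hint from the data and not the design. Values under the filter of 4.66 are given as the arrays read them, and no background level was measured here. In treated kidneys these included all values of Ccna2 and Tlr4 and some of Mki67, Mfap4 and Ptgs2.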

Other observations

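Some genes of innate immunity, chosen after their values were seen, were lower in treated kidneys. Tlr4, the receptor for bacterial lipopolysaccharide, read 4.92 to 5.11 in vehicle and 4.24 to 4.62 in treated kidneys (change -0.57 ± 0.09, adjusted p = 0.0012 in limma). Tnfaip3, which damps NF-kappaB signalling, changed by -0.53 ± 0.09, Cxcl16, a chemokine, by -0.71 ± 0.15, C3, the central complement component, by -0.64 ± 0.14, and Cybb, the NADPH oxidase subunit of phagocytes, by -0.42 ± 0.09. Tlr4 and Tnfaip3 were called in all 9 fits that left out 1 array, Cxcl16 in 8 and C3 and Cybb in 7 each. At 500 mg/kg their changes lay between -0.11 and 0.02, and none passed there. Thbd, the thrombomodulin of endothelial cells, changed by -0.57 ± 0.11, but 2 dimmer probe sets gave 0.33 and -0.49.

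Several rises with small p were in genes that no list held, also chosen after their values were seen. Enpp5, a membrane phosphodiesterase, read 10.47 to 10.67 in vehicle and 10.94 to 11.28 in treated kidneys (change 0.55 ± 0.08, adjusted p = 0.00019 in limma). Upb1, of pyrimidine breakdown, changed by 0.56 ± 0.08, Iyd, the iodotyrosine deiodinase, by 0.54 ± 0.09, and Cyb5a, cytochrome b5, by 0.40 ± 0.06. All 4 were called in each of the 9 fits that left out 1 array. Cyb5a was lower in the PPH vehicles than in the other vehicles by 0.34 (adjusted p = 0.00019 in limma). Papss2, which makes the sulfate donor used by Sult1a1, changed by 0.44 ± 0.10 in kidney and by -0.36 in liver, a difference of 0.80 (adjusted p = 0.0013).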
